A study of Mus musculus with 9 samples.

Results

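The RNA levels of 10 pluripotency factors, 9 transcription factors and the RNA-binding protein gene Lin28b, were followed in cultured mouse spermatogonial stem cells (SSCs), the self-renewing germ cells of the testis. The members were taken by gene symbol (Pou5f1, Sox2, Nanog, Klf4, Klf2, Tfcp2l1, Esrrb, Zfp42, Lin28b and Prdm14) from a table of whole-number counts for 53801 genes, and each of the 10 symbols was found once. RNA sequencing had been done on 9 libraries in 3 groups of 3, named by their labels 4OHT, MU and OE. The cells came from Prmt5 flox/flox; Rosa26-CreERT2 mice, in which 4-hydroxytamoxifen (4OHT, 1 µM) activates a ubiquitously expressed Cre recombinase that deletes Prmt5, the arginine methyltransferase that makes symmetric dimethylarginine. The labels do not spell out MU and OE. Read together with the methods of the study, MU is taken here as deleted cells given the catalytically dead PRMT5 (E444Q) by lentivirus and OE as deleted cells given PRMT5 (WT) by the same route, so that the deletion is shared by the 3 groups and the 4OHT libraries carry no added PRMT5. The study's methods do not say whether the 4OHT cells received a lentivirus without PRMT5. Added PRMT5 and the lentiviral treatment therefore cannot be told apart in the comparisons with 4OHT. The 9 libraries include no vehicle-treated cells. The labels call the source an SSC cell line and do not say whether the 3 libraries of a group came from separate cultures, so p-values measure the spread between these libraries, which may be technical.

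OCT4 (encoded by Pou5f1) and SOX2 bind DNA together at composite octamer and SOX elements and, with NANOG, hold embryonic stem (ES) cells undifferentiated. KLF2, KLF4, ESRRB and TFCP2L1 belong to the naive network, in which KLF4 and TFCP2L1 respond to LIF, ESRRB and TFCP2L1 to GSK3 inhibition, and KLF2 to inhibition of the MEK pathway. PRDM14 represses the FGF pathway and DNA methyltransferases in naive cells and in primordial germ cells, and ZFP42 (REX1) is a classic marker of the naive state. Cultured spermatogonia express OCT4 and LIN28 proteins without being pluripotent, and LIN28B blocks maturation of the let-7 family of microRNAs.

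In units of 1000000 counts, the libraries held 78.8 to 95.4 in 4OHT, 192 to 365.7 in MU and 79.9 to 155 in OE. Among the counts of a library, the value 4 occurred 1.35 to 1.84 times as often as its neighbouring values. From this, 1 read pair was taken to give about 4 counts, which the sources used here do not state. On that reading 12 counts (3 read pairs) were taken as the detection floor. The floor is 0.126 to 0.152 counts per 1000000 (CPM) in 4OHT, 0.0328 to 0.0625 CPM in MU and 0.0776 to 0.150 CPM in OE. The floors use library totals without TMM scaling, while the CPM of genes uses TMM-scaled totals. Whether a gene was at the floor was judged on its counts. The floors cover counting error only. Prmt5, the targeted gene, measured 28.2 to 31.9 CPM in the 4OHT libraries, 145 to 147 CPM in the MU libraries and 1071 to 1085 CPM in the OE libraries. The labels as read here place MU and OE above 4OHT and set no order between MU and OE. Reads of the deleted locus and of an added coding sequence are counted together there. The germ cell marker Ddx4, an RNA helicase gene, measured 298 ± 16.9 CPM in 4OHT, 551 ± 23.4 in MU and 590 ± 16.1 in OE (SD, n = 3 each). Other germ cell markers moved both ways and are given below.

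Of the 10 members, 9 were detected above the floor in at least 8 of 9 libraries and 1, Prdm14, was at or under it in 8 of 9. In MU against 4OHT, Sox2, Pou5f1, Klf4 and Klf2 were lower and Esrrb, Zfp42, Lin28b and Tfcp2l1 were higher. The same 8 members passed the test in the same directions in OE against 4OHT. Nanog did not pass in either. The counts of 4 higher and 4 lower among 9 tested stand against 56.0% of 22452 genes called in MU against 4OHT (29.5% higher and 26.5% lower) and 57.8% in OE against 4OHT (29.9% higher and 27.9% lower), with edgeR's quasi-likelihood test and an adjusted p under 0.05. The 3 libraries of a group did not overlap those of 4OHT for 8 of the 9 in each comparison, against 63.9% and 61.6% of all genes tested. Most genes tested were thus called or did not overlap, and the counts alone do not set the members apart. The median log2 fold change of the 9 was -0.50 in MU and -0.56 in OE against 4OHT, beside 0.04 and 0.02 over all genes tested. With 4 members higher and 4 lower, this median is the value of 1 gene, Nanog in MU and Klf2 in OE. It does not describe a shared fall. Both comparisons share the 4OHT libraries, so their values are given side by side and not as independent results.

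**Figure D1:**
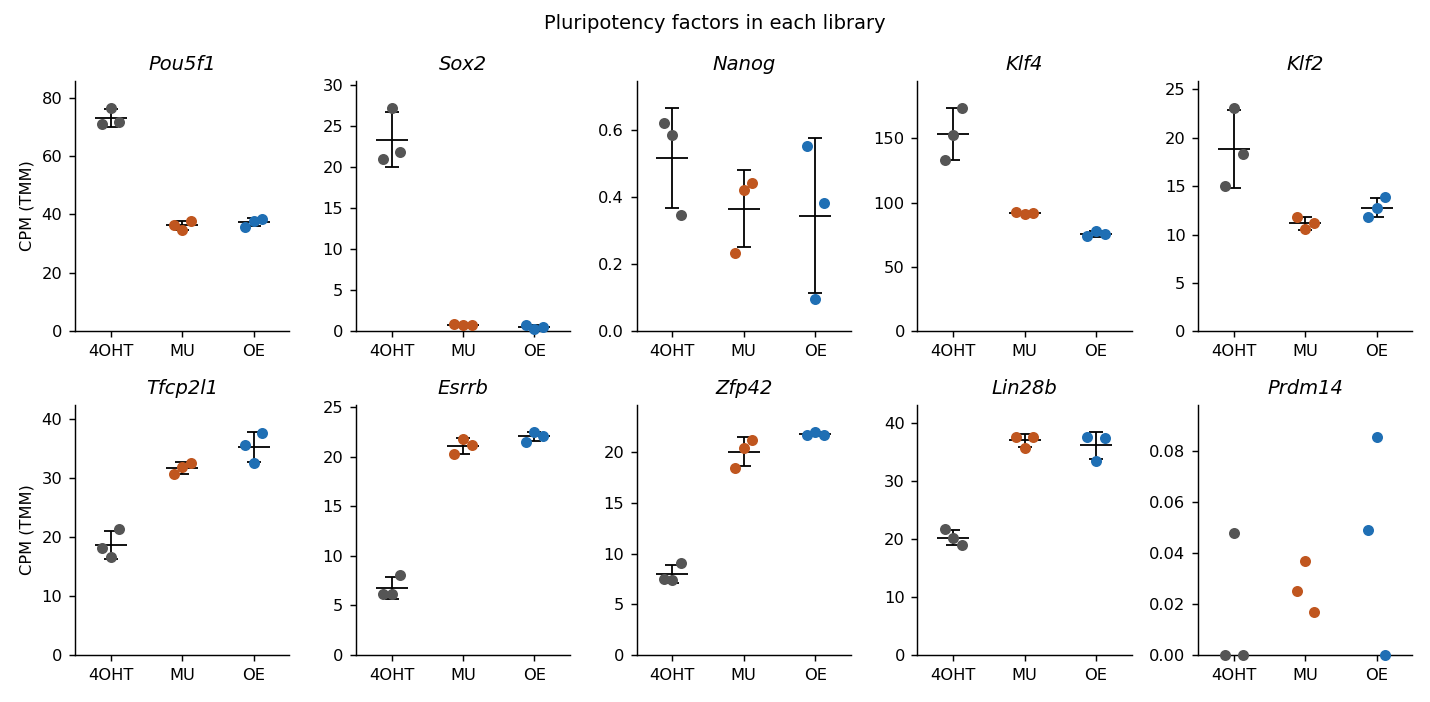
CPM (TMM-scaled) of the 10 members in each library, 1 panel per gene with its own axis from 0; points are the 3 libraries of each group and, except for Prdm14, the horizontal mark and bars are the mean and SD. Sox2 fell from 21.0 to 27.3 CPM in 4OHT to under 1 CPM in the 6 MU and OE libraries, while the 6 lay above the 4OHT libraries for Esrrb, Zfp42, Tfcp2l1 and Lin28b.

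Markers of other cells differed between the same groups. The summed level of 12 fibroblast markers, among them the collagen genes Col1a1 and Col1a2, ran from 10507 to 12532 CPM in 4OHT, from 6170 to 6242 CPM in MU and from 4754 to 4850 CPM in OE. With edgeR's quasi-likelihood test, 11 of the 12 were called lower in MU and 12 of 12 in OE, and none was called higher. Of all genes tested, 29.5% were called higher and 26.5% lower in MU, and 29.9% higher and 27.9% lower in OE. These shares are the background for each marker count below as well. The study's methods name feeder layers for its compound screen and growth curve, and do not say whether the cultures sequenced here held feeder cells. The sum of 12 macrophage markers ran from 177 to 191 CPM in 4OHT, from 1150 to 1183 CPM in MU and from 2242 to 2367 CPM in OE, with 12 of 12 called higher in both comparisons.

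The sum of 13 germ cell markers ran from 2313 to 2387 CPM in 4OHT, from 2854 to 2943 CPM in MU and from 3109 to 3120 CPM in OE. Its members moved both ways, 6 higher, 6 lower and 1 not called in each comparison, with Etv5 and Gfra1, the GDNF response factor and the GDNF receptor, at log2 fold changes of -3.18 and -2.13 in MU. The sum of 7 endothelial markers lay between 17.4 and 20.9 CPM over the 9 libraries. That of 5 Sertoli cell markers ran from 22.9 to 26.6 CPM in 4OHT. It ran from 16.6 to 18.1 CPM in MU and from 14.8 to 18.3 CPM in OE, without overlap with 4OHT. Among these markers Sox9 fell from 16.2 CPM in 4OHT to 6.81 CPM in MU and 6.05 CPM in OE, and Wt1 and Gata4 rose. The Sertoli sum therefore does not describe a shared fall. Endothelial markers were called 2 higher and 2 lower in MU and 2 higher and 1 lower in OE. Sertoli markers were called 2 higher (Wt1 and Gata4) and 2 lower in each. Beside the shares of all genes given above, the endothelial and Sertoli counts do not set these markers apart. Every marker of the fibroblast, macrophage, germ cell and endothelial lists was above the floor in at least 1 library of each group. Their part in the changes of the pluripotency factors was not tested.

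**Figure D2:**
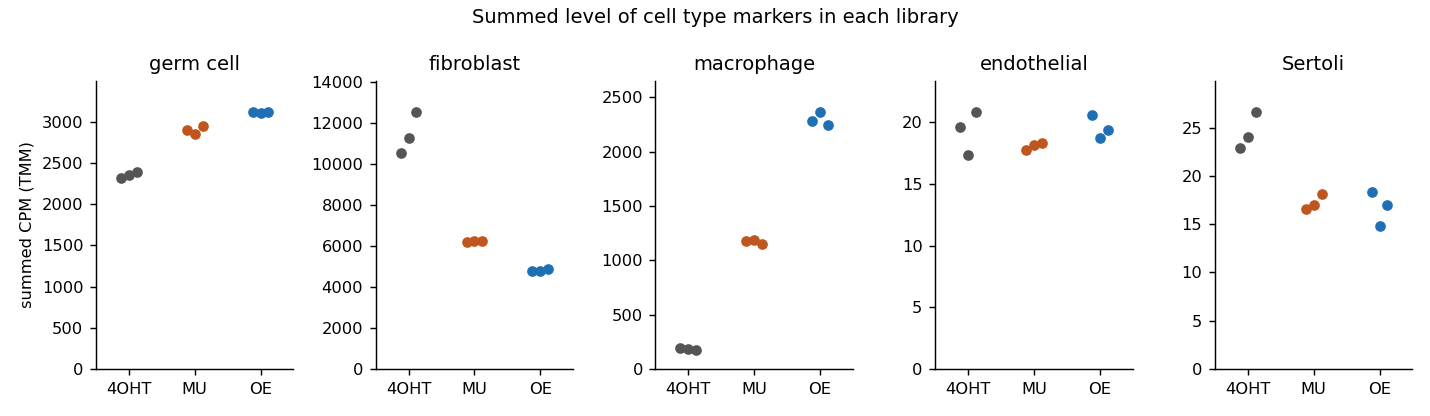
Summed CPM (TMM-scaled) of 5 marker lists in each library, 1 panel per list with its own axis from 0; each point is a library. The fibroblast sum is highest in the 4OHT libraries, the macrophage sum lies at 177 to 191 CPM in 4OHT and at 2242 to 2367 CPM in OE, and the germ cell sum lies between 2313 and 3120 CPM.

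Sox2 and Pou5f1, the partner factors of the core network, were both lower in MU and in OE than in 4OHT, by very different amounts. Sox2 (ENSMUSG00000074637, a single-exon gene at chr3:34650405-34652461, plus strand, GRCm38) measured 21.0, 27.3 and 21.9 CPM in the 4OHT libraries. It measured 0.830, 0.748 and 0.707 CPM in MU and 0.800, 0.310 and 0.472 CPM in OE. The 6 libraries with added PRMT5 lay far under the 3 without, and MU and OE overlapped each other. Each of those 6 was still above the floor, at 164, 283 and 168 counts in MU and 65, 29 and 74 counts in OE. The log2 fold change was -4.94 ± 0.22 (SE) in MU against 4OHT, 30.8-fold lower (adjusted p = 2.8e-10, edgeR's quasi-likelihood test). In OE against 4OHT it was -5.50 ± 0.24, 45.3-fold lower (adjusted p = 1.7e-10, edgeR). A larger change in either direction was fitted for 0.828% and 1.01% of the genes tested in MU and in OE. In bulk RNA, fewer cells expressing a gene and less RNA per cell cannot be told apart.

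Sox2 lies within an intron of the long noncoding RNA gene Sox2ot, on the same strand and with no shared exonic base. Sox2ot measured 1.25 ± 0.049 CPM in 4OHT, 0.0662 ± 0.018 CPM in MU and 0.0907 ± 0.11 CPM in OE (SD, n = 3 each). It was called lower in both comparisons (log2 fold changes of -4.22 ± 0.66 and -3.64 ± 0.66, edgeR adjusted p of 8.1e-05 and 2.8e-04). It was at or under the floor in the third MU library and in the first and second OE libraries, so the sizes of these folds rest on few counts. Whether the counting used strand is not stated in the sources used here.

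Pou5f1 (ENSMUSG00000024406, 6 exon blocks at chr17:35506018-35510772, plus strand) measured 70.9, 76.5 and 71.7 CPM in 4OHT. It measured 36.2, 34.8 and 37.7 CPM in MU and 35.8, 37.8 and 38.5 CPM in OE. The 4OHT libraries were all higher than the other 6, and MU and OE overlapped. Against 4OHT, Pou5f1 changed by a log2 fold of -1.01 ± 0.056 in MU (2.02-fold lower, adjusted p = 3.1e-09, edgeR) and -0.96 ± 0.057 in OE (1.95-fold lower, adjusted p = 4.5e-09, edgeR). An antisense gene, Gm19553, shares 317 exonic bases with it and held at most 3 counts in a library.

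The table of RefSeq promoters used holds 12 for the members, with a second start for each of Pou5f1, Nanog and Esrrb. The 250 bases before the start of Sox2 and before the first start of Pou5f1 are shown because these partner genes lay so far apart in the size of their fall. Capitals mark every match, on either strand, to the octamer ATGCAAAT, the SOX motif CATTGT or the KLF motif CCNCNCCC, letters that the proteins of this network are known to bind. KLF matches often overlap each other. Sequences and starts are RefSeq's on GRCm38.p6, and the Sox2 start used lies 410 bases before the annotated gene start given above.
Sox2, chr3:34649745-34649994, plus strand: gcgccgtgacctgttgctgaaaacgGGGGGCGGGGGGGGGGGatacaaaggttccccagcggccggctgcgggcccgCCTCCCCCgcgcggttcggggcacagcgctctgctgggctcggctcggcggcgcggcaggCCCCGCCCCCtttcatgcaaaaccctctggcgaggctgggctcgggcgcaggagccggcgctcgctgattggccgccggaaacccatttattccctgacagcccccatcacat
Pou5f1, chr17:35505782-35506031, plus strand: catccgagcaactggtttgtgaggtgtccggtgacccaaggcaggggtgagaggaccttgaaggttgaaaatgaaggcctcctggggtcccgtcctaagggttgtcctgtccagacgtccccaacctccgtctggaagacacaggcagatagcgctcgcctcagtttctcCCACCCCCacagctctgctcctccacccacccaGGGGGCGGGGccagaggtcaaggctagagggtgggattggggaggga
The Sox2 stretch holds 9 KLF matches, several of them within runs of G, and the Pou5f1 stretch holds 3. Neither of these stretches holds an octamer or SOX match. The second Pou5f1 promoter, at chr17:35508557-35508806 within the gene, holds a SOX match 158 bases before its start and no octamer or KLF match. In the 250 bases before the start of 32851 RefSeq promoters, 45.9% hold a KLF match, 10.7% a SOX match and 1.6% an octamer. A match describes the letters and is not a measured site.

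Nanog and Prdm14 were the members near the floor. Nanog (ENSMUSG00000012396, chr6:122707489-122714633, plus strand) measured 0.619, 0.586 and 0.346 CPM in 4OHT. It measured 0.233, 0.420 and 0.442 CPM in MU and 0.554, 0.096 and 0.383 CPM in OE. The 3 groups overlapped, and the lowest value, in the second OE library, rested on 9 counts and was the 1 of 9 libraries at or under the floor. The log2 fold change was -0.50 in MU against 4OHT, with a 95% interval of -1.64 to 0.65 (adjusted p = 0.458, edgeR). In OE against 4OHT it was -0.59, with an interval of -1.76 to 0.59 (adjusted p = 0.382, edgeR). These intervals span a fall as large as that of Pou5f1 and a small rise, so a fall of that size in Nanog is not excluded.

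Prdm14 (ENSMUSG00000042414, chr1:13113457-13127163, minus strand) had 0, 4 and 0 counts in the 4OHT libraries, 5, 14 and 4 in MU and 4, 8 and 0 in OE. The 1 library above the floor of 12 counts was the second of MU, and 3 of 9 libraries had no count. Summed over a group, its counts were 0.0153 CPM in 4OHT, 0.0292 CPM in MU and 0.0367 CPM in OE, without TMM scaling. It was left out by the filter on low counts and was not tested, and no fold is given.

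The KLF factors Klf4 and Klf2, which in ES cells occupy many of the same sites, were lower in both comparisons. Klf4 (ENSMUSG00000003032, chr4:55527143-55532466, minus strand) measured 133, 152 and 174 CPM in 4OHT. It measured 92.7, 90.8 and 91.7 CPM in MU and 73.6, 78.2 and 75.8 CPM in OE. No library of one group reached into another, with 4OHT highest and OE lowest. Its log2 fold change was -0.74 ± 0.075 in MU (1.67-fold lower, adjusted p = 1.3e-06, edgeR) and -1.01 ± 0.076 in OE (2.02-fold lower, adjusted p = 5.0e-08, edgeR).

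Klf2 (ENSMUSG00000055148, chr8:72319033-72321656, plus strand) measured 15.1, 23.1 and 18.3 CPM in 4OHT. It measured 11.8, 10.5 and 11.1 CPM in MU and 11.8, 12.7 and 13.8 CPM in OE. The 4OHT libraries were spread widely but stayed above the others, and the top of MU overlapped the bottom of OE. The log2 fold change was -0.75 ± 0.13 in MU (adjusted p = 1.7e-04, edgeR) and -0.56 ± 0.13 in OE (adjusted p = 0.0020, edgeR). Both genes are also expressed outside pluripotent cells, Klf4 in fibroblasts and Klf2 in endothelial cells and macrophages.

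The naive factors Esrrb and Tfcp2l1 and the naive marker Zfp42 went the other way. Esrrb (ENSMUSG00000021255, an orphan nuclear receptor, chr12:86361117-86521628, plus strand) measured 6.13, 6.18 and 8.07 CPM in 4OHT. It measured 20.3, 21.8 and 21.2 CPM in MU and 21.5, 22.5 and 22.1 CPM in OE. Every library with added PRMT5 was above every 4OHT library. Esrrb rose by a log2 fold change of 1.63 ± 0.10 in MU (3.10-fold higher, adjusted p = 7.8e-09, edgeR) and 1.70 ± 0.10 in OE (3.25-fold higher, adjusted p = 4.8e-09, edgeR). A larger change in either direction was fitted for 10.9% and 12.6% of the genes tested.

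Zfp42 (ENSMUSG00000051176, a zinc finger gene related to Yy1, chr8:43295063-43306980, minus strand) measured 7.49, 7.43 and 9.04 CPM in 4OHT. It measured 18.5, 20.5 and 21.2 CPM in MU and 21.7, 22.0 and 21.7 CPM in OE. The 4OHT libraries lay under the rest, and OE lay just above MU. Zfp42 rose by 1.33 ± 0.090 on the log2 scale in MU (2.51-fold higher, adjusted p = 2.2e-08, edgeR) and 1.45 ± 0.091 in OE (2.73-fold higher, adjusted p = 8.5e-09, edgeR).

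The same stretch is shown for Zfp42 and before the first start of Esrrb, the members with the largest rises in both comparisons, with the motifs marked as before.
Esrrb, chr12:86360867-86361116, plus strand: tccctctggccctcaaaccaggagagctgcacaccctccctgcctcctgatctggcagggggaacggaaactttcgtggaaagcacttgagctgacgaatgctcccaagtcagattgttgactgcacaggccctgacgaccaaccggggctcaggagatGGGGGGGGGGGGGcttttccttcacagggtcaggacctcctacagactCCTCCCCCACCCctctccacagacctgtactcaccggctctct
Zfp42, chr8:43307010-43307259, minus strand: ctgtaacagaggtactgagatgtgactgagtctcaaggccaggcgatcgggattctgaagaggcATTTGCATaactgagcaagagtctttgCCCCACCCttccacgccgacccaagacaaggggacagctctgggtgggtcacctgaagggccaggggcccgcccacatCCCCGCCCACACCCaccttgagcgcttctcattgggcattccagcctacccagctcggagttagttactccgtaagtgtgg
The Esrrb stretch holds 8 KLF matches, 6 of them in 1 run of G, and no octamer or SOX match. The Zfp42 stretch holds 1 octamer, on the strand opposite to the gene and 186 bases before the start, and 3 KLF matches. The second Esrrb promoter holds 1 KLF match. Among the members, 9 of 10 had a RefSeq promoter in the table used. In their 12 promoters an octamer was found for Zfp42, and a SOX match was found for Nanog, 67 bases before its first start, and for the second start of Pou5f1.

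Tfcp2l1 (ENSMUSG00000026380, a grainyhead-related factor, chr1:118627945-118685168, plus strand) measured 18.1, 16.6 and 21.3 CPM in 4OHT. It measured 30.7, 31.8 and 32.6 CPM in MU and 35.7, 32.6 and 37.7 CPM in OE. The 4OHT libraries were lowest, and MU stopped just short of OE. Tfcp2l1 rose by a log2 fold change of 0.76 ± 0.087 in MU (1.70-fold higher, adjusted p = 4.0e-06, edgeR) and 0.92 ± 0.087 in OE (1.89-fold higher, adjusted p = 6.0e-07, edgeR).

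Lin28b (ENSMUSG00000063804, chr10:45376620-45486395, minus strand) measured 21.6, 20.1 and 18.9 CPM in 4OHT. It measured 37.6, 35.7 and 37.6 CPM in MU and 37.6, 33.3 and 37.4 CPM in OE. The 4OHT libraries lay under the other 6, which overlapped between MU and OE. Lin28b rose by a log2 fold change of 0.87 ± 0.070 in MU (1.83-fold higher, adjusted p = 1.1e-07, edgeR) and 0.84 ± 0.070 in OE (1.79-fold higher, adjusted p = 1.6e-07, edgeR). Its paralog Lin28a rose from 171 ± 5.14 CPM in 4OHT to 341 ± 4.02 CPM in MU and 356 ± 6.54 CPM in OE (SD, n = 3 each).

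The list for the LIN28 and let-7 axis mixes let-7 targets with Lin28a and other genes of the axis. Its genes did not follow Lin28b in one direction. Of 17 listed genes, 6 were higher, 8 lower and 3 not called in each comparison with edgeR, against 56.0% and 57.8% of all genes tested called in either direction, with a median log2 fold change of -0.03 in MU and 0.15 in OE. Hmga2, a chromatin protein gene and well-known let-7 target, fell from 424 ± 32.3 CPM in 4OHT to 64.0 ± 1.90 CPM in MU and 49.9 ± 1.92 CPM in OE. Its relative Hmga1 fell by 1.67 and 1.59 on the log2 scale, Myc by 1.77 and 2.04, and the cyclin gene Ccnd2 by 1.43 and 1.26, in MU and in OE. The 6 higher genes of the list were Lin28a, Trim71, Arid3b, Dicer1, Zcchc11 and Arid3a. Trim71 rose by 0.73 and 0.84, Arid3b by 0.59 and 0.61, and Dicer1 by 0.54 and 0.66, in MU and in OE. Lin28b was higher in the same 2 comparisons. The let-7 targets of the list were not counted apart from its other genes.

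MU against OE sets catalytically dead PRMT5 against PRMT5 (WT), as the labels are read here. None of the 9 tested members passed edgeR's adjusted p of 0.05, against 3.17% of all genes tested (2.12% higher and 1.06% lower in MU). At an unadjusted p under 0.05 there were 2, Sox2 and Klf4, and DESeq2 called 1, Klf4. The groups did not overlap for 3 members, Klf4, Tfcp2l1 and Zfp42, against 25.9% of all genes tested. The median log2 fold change of the 9 was -0.05, beside 0.01 over all genes.

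Klf4 was 0.27 higher in MU on the log2 scale (95% interval 0.11 to 0.44, adjusted p = 0.0745, edgeR), and its call changed with the processing, with adjusted p-values from 1.28e-04 to 0.246 over the alternatives. Sox2 was 0.56 higher in MU (0.05 to 1.07, adjusted p = 0.329, edgeR), and the first OE library, at 0.800 CPM, lay within the MU range. Without that library the difference was 0.91 (adjusted p = 0.0463, edgeR). For Nanog the interval ran from -1.06 to 1.24, wide enough for a difference of over 2-fold either way.

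For the other members the interval of the difference held 0. These intervals leave room for small differences, up to 1.39-fold lower in MU for Klf2. The interval was -0.17 to 0.07 for Pou5f1, -0.47 to 0.08 for Klf2 and -0.34 to 0.03 for Tfcp2l1. It was -0.27 to 0.14 for Esrrb, -0.31 to 0.07 for Zfp42 and -0.11 to 0.18 for Lin28b. Prmt5 RNA itself was lower in MU than in OE (146 ± 0.957 against 1076 ± 7.61 CPM, SD, n = 3 each; log2 fold change -2.88, adjusted p = 1.1e-12, edgeR), so that the form of PRMT5 and its RNA level cannot be told apart in this comparison. In it the fibroblast sum was 1.29 times higher and the macrophage sum 1.96 times lower in MU, and their part in it was not tested.

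**Figure D3:**
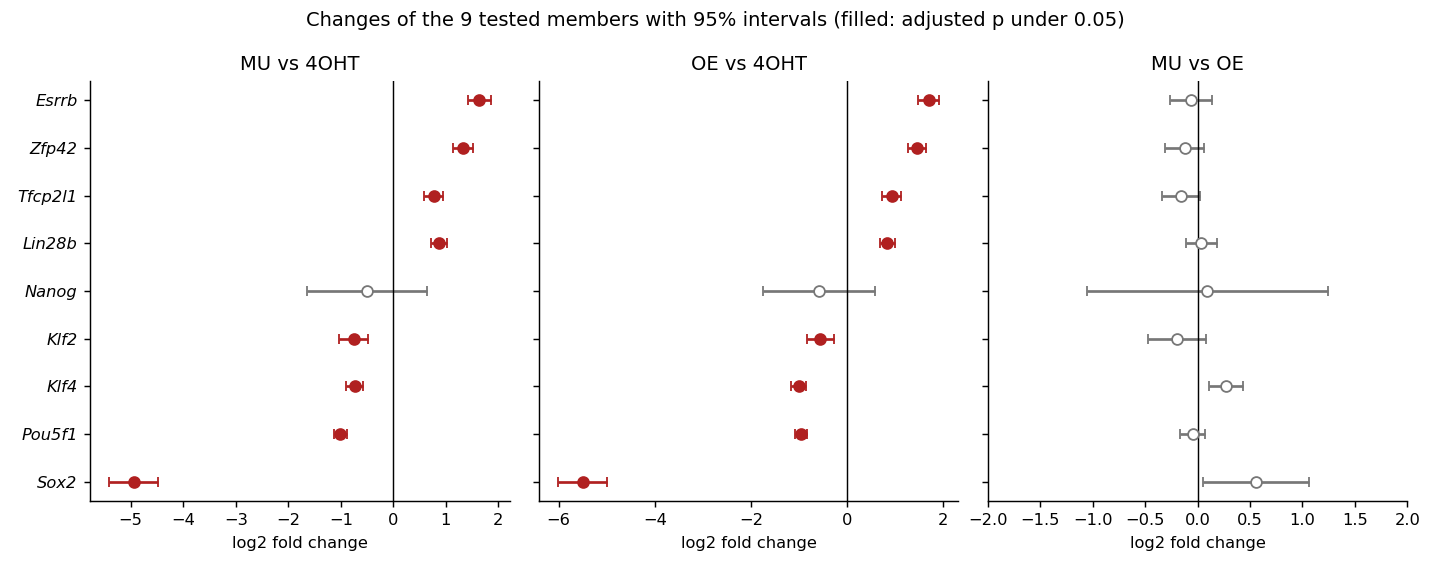
Log2 fold change of the 9 tested members in 3 comparisons, with 95% intervals from edgeR's quasi-likelihood fit; filled red points passed an adjusted p of 0.05, open grey points did not, and the horizontal axes differ between panels. Sox2 stands at -4.94 and -5.50 against 4OHT, 4 members lie on the right in both, and each member is open in MU against OE.

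Levels were compared between members per length, as transcripts per 1000000 (TPM) over the exonic length of each gene. In 4OHT the order was Klf4 (176 ± 28.3 TPM), Pou5f1 (114 ± 4.91), Sox2 (39.8 ± 5.46), Klf2 (35.7 ± 7.62), Zfp42 (14.9 ± 2.16), Lin28b (7.81 ± 0.33), Tfcp2l1 (6.95 ± 1.09), Esrrb (3.95 ± 0.77), Nanog (0.804 ± 0.21) and Prdm14 (0.0215 ± 0.037; SD, n = 3). The libraries of neighbours in that order overlapped for Sox2 with Klf2 and for Lin28b with Tfcp2l1. Klf4 and Pou5f1 kept the first and second places in MU, at 111 and 59.6 TPM, and in OE, at 90.8 and 60.7 TPM. Zfp42 took the third place, at 39.4 TPM in MU and 42.3 TPM in OE. Sox2 went from the third place to the eighth, at 1.37 ± 0.11 TPM in MU and 0.937 ± 0.45 TPM in OE, where it overlapped Nanog (0.562 ± 0.38 TPM). Between them stood Klf2, Lin28b, Esrrb and Tfcp2l1, from 12.4 to 22.4 TPM in MU and from 13.3 to 25.3 TPM in OE. Esrrb overlapped Tfcp2l1 in both groups, and Tfcp2l1 overlapped Lin28b in OE.

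**Figure D4:**
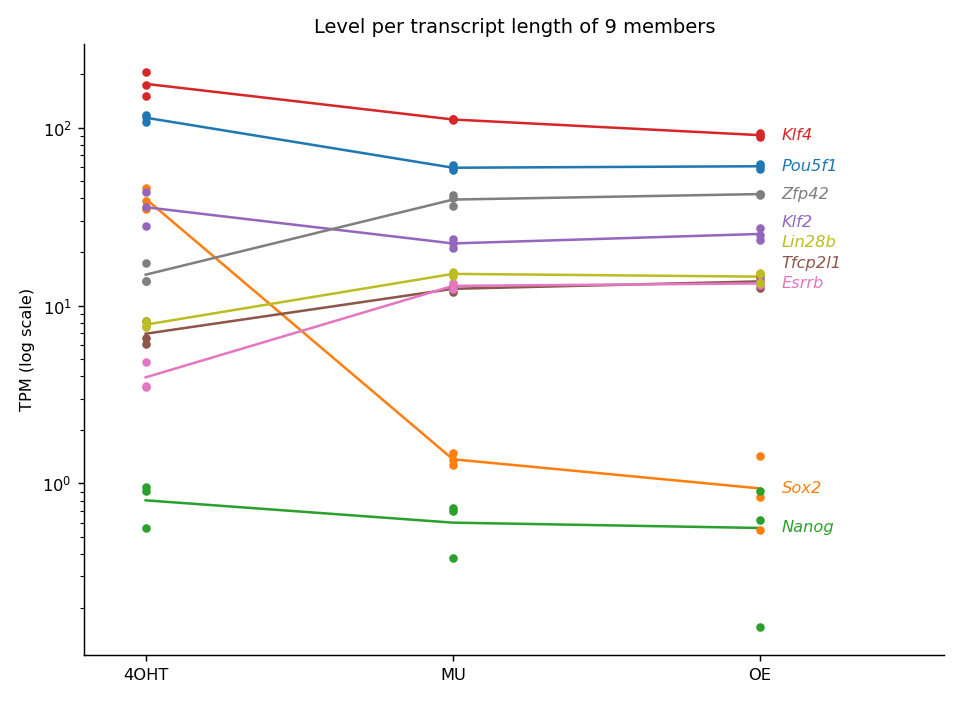
Level per transcript length (TPM, log axis) of 9 members in the 3 groups; points are libraries, lines join the group means, and Prdm14 is left out because some libraries had no count. Sox2 drops from 39.8 to 1.37 and 0.937 TPM and crosses Zfp42, Lin28b, Tfcp2l1 and Esrrb, which rise.

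Of the other genes of the network, most of those used by germ cells and pluripotent cells alike were higher with added PRMT5. In this list, 11 of 14 genes were higher, 2 lower and 1 not called in each comparison (edgeR), with a median log2 fold change of 0.75 in MU and 0.87 in OE. Over all genes tested, 29.5% were higher and 26.5% lower in MU and 29.9% higher and 27.9% lower in OE, which is the background for each list count given here. Dppa4 rose by 1.37 and 1.44, the cell cycle factor gene Mybl2 by 1.20 and 1.33, and Utf1 by 1.19 and 1.14. The lower members were Prdm1 and Nanos3, both germ cell regulators, and Dppa2 was the one not called. The germ cell marker sum also was higher in MU and OE, and its part in this was not tested.

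The ES cell network list was mixed. Of 17 genes tested, 4 were higher and 6 lower in MU, and 4 were higher and 7 lower in OE, with a median of -0.21 in both. The eighteenth, Fgf4, a target of OCT4 and SOX2 in ES cells, had at most 11 counts in a library and was not tested. Dppa5a rose 2.74-fold in MU and 2.63-fold in OE, and Sall1 rose 1.80-fold in both. The nuclear receptor gene Nr5a2 fell by 0.96 and 0.87 and Tbx3 by 0.76 and 0.85. Eras and Nr0b1 were at or under the floor in the 3 libraries of 4OHT.

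Of 10 genes of primed pluripotency, 4 were higher and 5 lower in MU, and 4 were higher and 4 lower in OE, with a median of -0.56 and -0.47. Sox3, the closest relative of Sox2 on this list and a known spermatogonial gene, rose from 56.6 ± 11.8 CPM in 4OHT to 169 ± 2.89 CPM in MU and 174 ± 15.9 CPM in OE, opposite to Sox2. Dnmt3b rose by 0.97 and 1.02, Zic2 rose by 0.77 and 1.16, and Foxd3 fell by 1.05 and 0.91.

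The KLF family outside Klf4 and Klf2 was divided, with 6 of 15 higher, 7 lower and 2 not called in each comparison and a median of -0.23 in MU and -0.13 in OE. Klf12, a repressor, fell by 1.57 and 2.08, Klf6 by 1.45 and 1.33, and Klf3 by 1.28 and 1.51. Klf17 rose 2.82-fold and 3.10-fold from 0.921 ± 0.24 CPM in 4OHT. Among 19 close relatives of the other members, 7 were higher and 5 lower in MU and 6 higher and 6 lower in OE, with a median of 0.25 and 0.17. The OCT2 gene Pou2f2 rose by 1.39 and 1.42, opposite to Pou5f1. In MU against OE, the lists gave 2 calls in all, Hmga2 (0.36 higher in MU, adjusted p = 0.0030) and Klf3 (0.23 higher, adjusted p = 0.0358), by edgeR. Some genes stand on more than one list, such as Lin28a and Sox3.

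**Figure D5:**
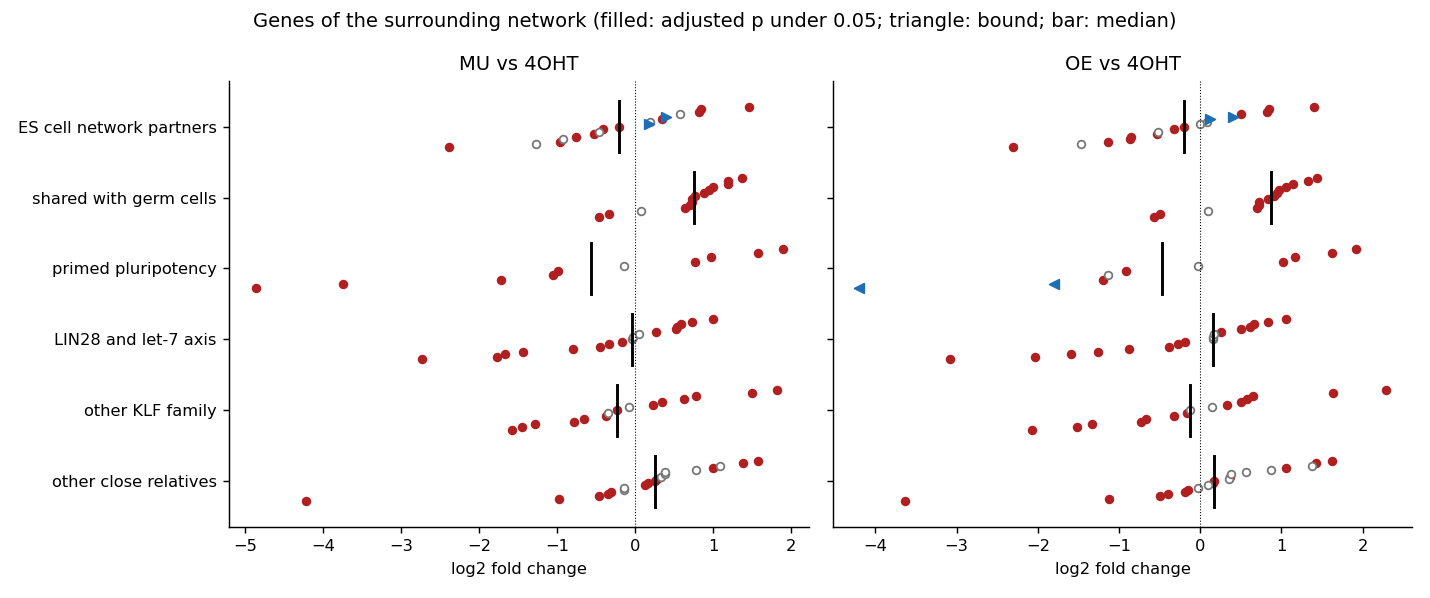
Log2 fold change of each tested gene in 6 lists of the surrounding network, against 4OHT, with MU left and OE right; filled points passed an adjusted p of 0.05 (edgeR), open points did not, triangles are bounds for genes at or under the floor in 1 group, pointing away from 0, and bars are list medians. The genes shared with germ cells sit mostly right of 0, with medians of 0.75 and 0.87, and the other lists spread to both sides.

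For the 8 members with a mean of at least 1 CPM in some group, which leaves out Nanog and Prdm14, the genes with the most similar pattern were found among 15418 genes by the distance between their log2 CPM values in the 9 libraries, each taken relative to the gene's own mean. For Pou5f1 they were Ppard, Arpc1b and Akr1b8, at distances of 0.144 to 0.177. For Klf4 they were Jun, Gm4735 and Tubb3 (0.135 to 0.164), and for Klf2 they were Chst5, Agpat4 and Map7d1 (0.306 to 0.316). Among the members that rose, Lin28b was closest to Rnf17, Pcgf5 and Gtf2e2 (0.116 to 0.158) and Tfcp2l1 to Zfp385b, Syne2 and Mki67 (0.153 to 0.190). Esrrb was closest to Itga9, Wnk2 and Sdk2 (0.163 to 0.197) and Zfp42 to Epb41, Susd1 and Ocln (0.168 to 0.211). Sox2 had no close match among the 15418 genes, each with a mean of at least 1 CPM over the 9 libraries. Its nearest genes were Prl2c2, Mcpt8 and Mmp10, at 1.36 to 1.72. Sox2ot, also lower in both comparisons, was under that mean and was not searched. Such a distance also grows with the size of a change and with noise at low counts. The 9 libraries are shared by every gene, and these distances are descriptions of 9 points.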

How the data were processed

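The labels describe paired-end mRNA libraries made from total RNA. Per the labels and the study's methods, the authors trimmed reads with Trimmomatic 0.39, aligned them to GRCm38 with HISAT2 2.2.1 and assembled and quantified them with StringTie 2.2.1. The deposited table holds whole-number counts per gene. How these were made whole, the strand setting and the handling of multi-mapped reads are not given in the sources used here.

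Counts of 9 libraries were tested with edgeR 4.0.16 in R 4.3.3 (glmQLFit and glmQLFTest, TMM, filterByExpr with a minimum count of 10 and total of 15, 22452 genes, 1 model for the 3 groups, Benjamini-Hochberg adjustment over all genes, threshold 0.05). The code was tested on simulated data. SE was derived from the fold change and F. CPM used TMM-scaled totals, and TPM used the exonic length in GENCODE vM21. Promoters were RefSeq's on GRCm38.p6. Alternatives included DESeq2 1.42.0, other scaling, no filter, counts divided by 4, a replicate block and leaving out each library.

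All 10 members are named, as are the genes called higher on the LIN28 and let-7 list. Of each list, up to 4 called genes with the largest change and a mean of at least 1 CPM are named, with members of small counts, and 3 nearest patterns for each of 8 members. The members and lists were chosen with earlier results of these data known. One gene that the naming rule would name is not reported here.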

Additional observations from a re-analysis of the deposited data

How the results depend on the processing

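Against 4OHT, 144 of 144 re-computed member values in MU, and 144 of 144 in OE, kept their direction and their side of the threshold. The value of Nanog, not called, still moved, from -0.72 to -0.25 in MU and from -1.05 to -0.14 in OE when 1 library was left out. In MU against OE 132 of 144 values kept their direction and their side of the threshold. Klf4 passed the threshold with library totals only (0.30, adjusted p = 0.0302), with no filter (0.31, 0.0230), with the MU and OE libraries alone (0.28, 1.28e-04), with counts divided by 4 (0.28, 0.0390), with DESeq2 (0.27, 0.0225) and without the first or the third 4OHT library (0.28 each, 0.00702 and 0.00327), by edgeR except where DESeq2 is named. Under each of those 7 settings, and without the first OE library (Sox2, 0.91), 1 member was called higher in MU where the reported count was 0, a range of 0 to 1 over the omissions. Nanog ran from -0.343 to 0.565 over the omissions, at -0.02 without the second MU library, -0.06 without the third and -0.343 without the second OE library. Lin28b ran from -0.0215, without the second OE library, to 0.0625. Over all genes, 475 were higher and 237 lower in MU against OE, but 822 and 743 with these 6 libraries alone, 729 and 385 with DESeq2, and 256 to 686 and 144 to 413 when 1 library was left out. The higher count moved over 1.5-fold without any 1 MU library or the first or second OE library, and the lower count without any 1 MU library, the third OE or the third 4OHT library. The LIN28 and let-7 list had 1 call there, 4 with the 6 libraries alone, 2 with DESeq2 and 1 to 2 over the omissions, with 2 without the third 4OHT library. The KLF list had 0 to 1 over the omissions, losing Klf3 without the second 4OHT library or any 1 MU or OE library, and the close relatives had 1 with the 6 libraries alone. The causes were not tested. Library numbers did not pair the samples, since same-numbered libraries deviated with correlations of -0.0884 to 0.0365 (9 pairs). A replicate block left the members at 4 higher and 4 lower against 4OHT and gave 444 higher and 230 lower genes in MU against OE. The counts of Nanog and Prdm14 were low.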

Other observations

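Below the level at which list genes were named, the primed genes T (Brachyury, the mesoderm factor) and Otx2 also were low where Sox2 was low, and they were picked out after their values were seen. T measured 2.16 ± 0.13 CPM in 4OHT, 0.0744 ± 0.015 CPM in MU and 0.0562 ± 0.059 CPM in OE (SD, n = 3 each). Its 3 OE libraries were at or under the floor, so it was at least 18.4-fold lower there than in 4OHT, with the floor of 12 counts taken per library. Otx2 measured 0.409 ± 0.079 CPM in 4OHT and 0.0273 ± 0.047 CPM in MU, where the SD exceeded the mean. It had no count in OE, which made it at least 3.48-fold lower there than in 4OHT. Lefty2, a NODAL antagonist gene, went the other way, from 0.249 ± 0.092 CPM in 4OHT to 0.924 ± 0.18 CPM in MU and 0.936 ± 0.034 CPM in OE.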
